A study of Mus musculus with 4 samples.

Results

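The genes followed here encode the signalling core of the Wnt pathway: 10 secreted ligands, 18 receptors and receptor partners, 12 cytoplasmic regulators and 8 nuclear factors, 48 genes in all. They are defined by gene symbol, and each had a value in all 4 mRNA-seq samples, out of 20340 gene labels with such a value. The samples are tibialis anterior (TA) muscle, which lifts the foot, from wild-type C57BL/6 mice aged 20 months (Old 1 and Old 2) or 3 months (Young 1 and Young 2). The mice carried no transgene and received no treatment, and per the study's methods their sex was left to chance. The sex behind each sample, and whether animals were pooled for it, are not given in the sources used here. The study compared the ages to find genes that differ in muscle atrophy of old age, and the same question is put here to each step of the Wnt pathway.

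Wnt proteins are lipid-modified signals that act on nearby cells through Frizzled receptors. In the canonical branch, a Wnt protein joins a Frizzled to the co-receptor Lrp5 or Lrp6, Dishevelled is recruited, and the complex of Axin, Apc, casein kinase 1 and Gsk3 no longer marks beta-catenin for destruction, so that beta-catenin reaches the nucleus and acts with TCF/LEF factors. Other branches signal through Ror receptors, Rac and calcium without beta-catenin. In skeletal muscle the pathway is known for its part in satellite cells, the stem cells of muscle, in regeneration and in the neuromuscular junction.

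Levels are given as FPKM, the sequenced fragments of a gene corrected for the length of its transcripts and for the total of mapped fragments, after each sample was divided by 1 scale factor, and are called scaled FPKM. These levels can be set against each other between genes. Differences between ages are given as the log2 of scaled FPKM + 1, Old minus Young, with the standard error (SE) and with the adjusted p of limma over 10266 genes that had at least 1 FPKM in at least 2 samples. Because 1 is added before the log, such a difference understates the change of a gene near or under 1 FPKM.

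The 2 samples of an age were not on the same scale, which bears on every value that follows. The scale factors were 1.51 and 1.52 for Old 1 and Young 2, but 0.652 and 0.667 for Old 2 and Young 1. One factor per sample did not level all genes: after scaling, genes at 0.3 to 1 FPKM still had a median log2 ratio of 1.44 (Old 1 to Old 2) and 1.35 (Young 2 to Young 1), and genes at 10 to 30 FPKM one of -0.21 and -0.20. Beyond this factor the samples of an age were nearly proportional at higher levels, but not for low genes. For genes at 1 to 3 FPKM, log2 ratios within an age scattered with a robust SD of 0.66 (Old) and 0.67 (Young). Across the ages they scattered with 0.56 (Old 1 to Young 2) and 0.44 (Old 2 to Young 1). For genes at 30 to 100 FPKM, log2 ratios within an age scattered with a robust SD of 0.05 at either age, while those across the ages scattered with 0.39 (Old 1 to Young 2) and 0.37 (Old 2 to Young 1). The study speaks of independent experiments, but nothing in the labels ties the samples of an age to separate animals, so the p-values measure only the spread between these samples, which may be technical. For this reason the ratio of deposited FPKM between ages is also given for the samples of like scale, Old 1 over Young 2 and Old 2 over Young 1, a pairing chosen after the values were seen. An exact two-sided permutation test of 2 against 2 samples cannot go below p = 0.333.

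The muscle markers Mb and Tnnt3 were read first as a check of the tissue. Mb (myoglobin) was at 2281 and 1675 scaled FPKM in the old samples and at 2553 and 3770 in the young ones, while Ckm and Myh4, which fast muscle fibers express strongly, were listed at 0 in all 4 samples, as was Tnnt3 in Old 1 and Old 2. Unlike Ckm and Myh4, Tnnt3 was not at 0 in all 4 samples. Of the 9 fiber markers tested, 0 were called higher and 1 lower in Old, beside 0.594% and 0.731% of all tested genes. The lowest difference in that list was -12.5, that of Tnnt3, and the smallest adjusted p was 0.00624 in limma. As the 0 of Ckm and Myh4 shows, a listed 0 may not be an expression level. The difference of Tnnt3 is therefore not read as a loss. Of the 9 differences, 6 were positive and 3 negative, with a median of 0.16. Both old samples lay above both young ones for 0 of the 9 and below for 2, beside 25.8% and 25.7% of all tested genes. All 6 slow-fiber markers with a value passed the test as higher in Old, where 0.594% of all tested genes did. Their summed levels were 707 to 849 scaled FPKM in Old against 53.9 to 58.4 in Young. The part of this difference in fiber markers in any Wnt pathway value was not tested.

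Of the 48 Wnt pathway genes, 33 passed the filter on low values: 5 of 10 ligands, 10 of 18 receptors, all 12 cytoplasmic regulators and 6 of 8 nuclear factors. None of the 33 passed through the samples of 1 age alone, and 24 of them had at least 1 FPKM in all 4 samples. At an adjusted p under 0.05 in limma, 0 of the 33 were called in either direction, where 0.594% of all tested genes were called higher and 0.731% lower in Old. The smallest adjusted p among them was 0.0770. At an unadjusted p under 0.05, limma marked 4 as higher (Wnt4, Fzd9, Fzd7 and Apc) and 5 as lower (Fzd4, Wnt5a, Wnt9a, Lrp5 and Lgr4), 12.1% and 15.2% of the 33 against 11.5% and 12.9% of all tested genes. These shares lie close to those of all genes, so the list as a whole did not stand apart, and what follows describes which of its genes lay at its ends.

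When the samples were instead levelled by cyclic loess, which removes a difference in scale that varies with the level of the gene, limma called 4 of the 33 higher in Old (Wnt4, Fzd7, Fzd9 and Gsk3a) and 7 lower (Fzd4, Wnt5a, Wnt9a, Lrp5, Lgr4, Dvl1 and Dvl3). With this normalization 11.1% of all tested genes were called higher and 13.6% lower.

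By the steps of the pathway, the median difference among tested members was -0.38 for the 5 ligands, -0.27 for the 10 receptors, -0.01 for the 12 cytoplasmic regulators and 0.07 for the 6 nuclear factors, beside 0.00 over all tested genes. With the 15 genes below the filter included, whose differences the added 1 holds near 0, the medians were -0.0021 for ligands, -0.16 for receptors and 0.02 for nuclear factors, and that of the ligands changed sign with the sample left out, from -0.18 without Old 1 to 0.12 without Old 2. Among the 33 tested, the 2 old samples lay above both young samples for 9 genes (27.3%) and below both for 11 (33.3%), and the ages overlapped for 13. Over all tested genes these shares were 25.8% above and 25.7% below. Between samples of like scale, both ratios were above 1 for 13 of the 33, both below 1 for 19 and on opposite sides for 1 (Tcf7l1). The ratios thus lay on the same side for 97.0% of the 33, close to the 93.9% of 9442 tested genes with both ratios.

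**Figure D1:**
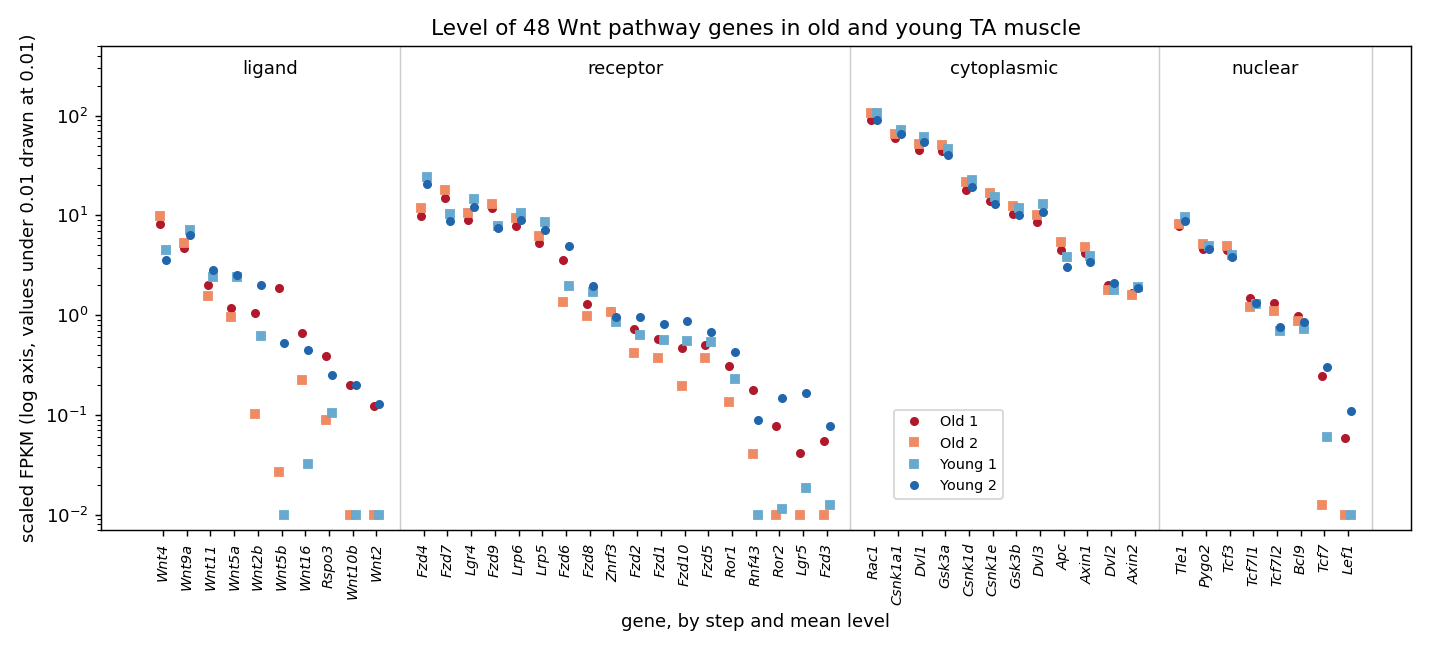
Scaled FPKM (log axis) of the 48 Wnt pathway genes in each of the 4 samples, grouped by step and ordered by mean level within a step. Cytoplasmic regulators reached the highest levels (Rac1, near 98 scaled FPKM), and 15 ligands, receptors and nuclear factors with means of 0.0369 to 0.608 were below the filter.

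**Figure D2:**
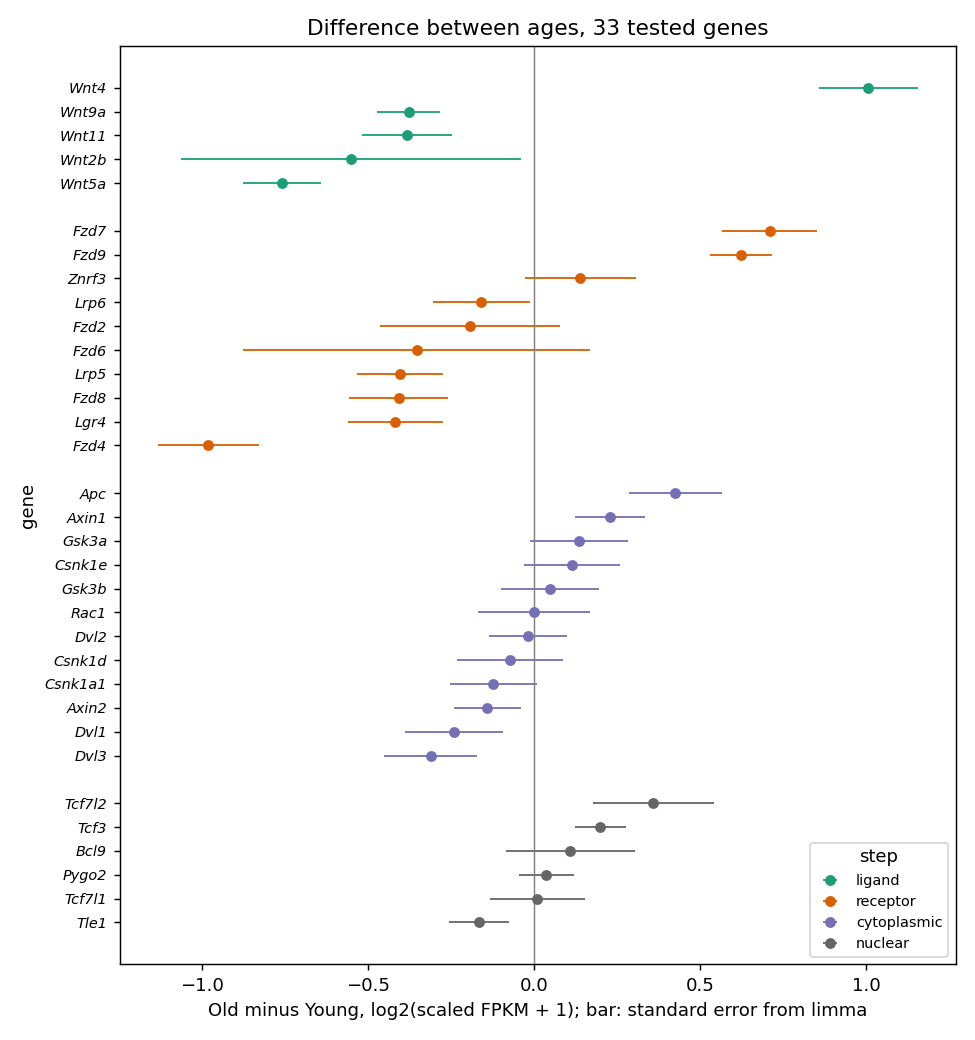
Difference between ages (log2 of scaled FPKM + 1, Old minus Young) of the 33 tested Wnt pathway genes, with bars of 1 SE from limma and colors for the step. The values run from -0.98 for Fzd4 to 1.01 for Wnt4, and no gene passed an adjusted p of 0.05.

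With the rule of at least 1.5-fold between age means and no overlap of the ages, 4 of the 33 lay higher in Old (Wnt4, Fzd9, Fzd7 and Tcf7l2) and 3 lower (Fzd4, Wnt5a and Fzd8). This is 12.1% and 9.09% of the 33, where 7.88% and 8.32% of all tested genes met the same rule. Fzd10, which was below the filter, also met the rule as lower. These 8 genes and the highest gene of each step are described with the value of every sample.

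**Figure D3:**
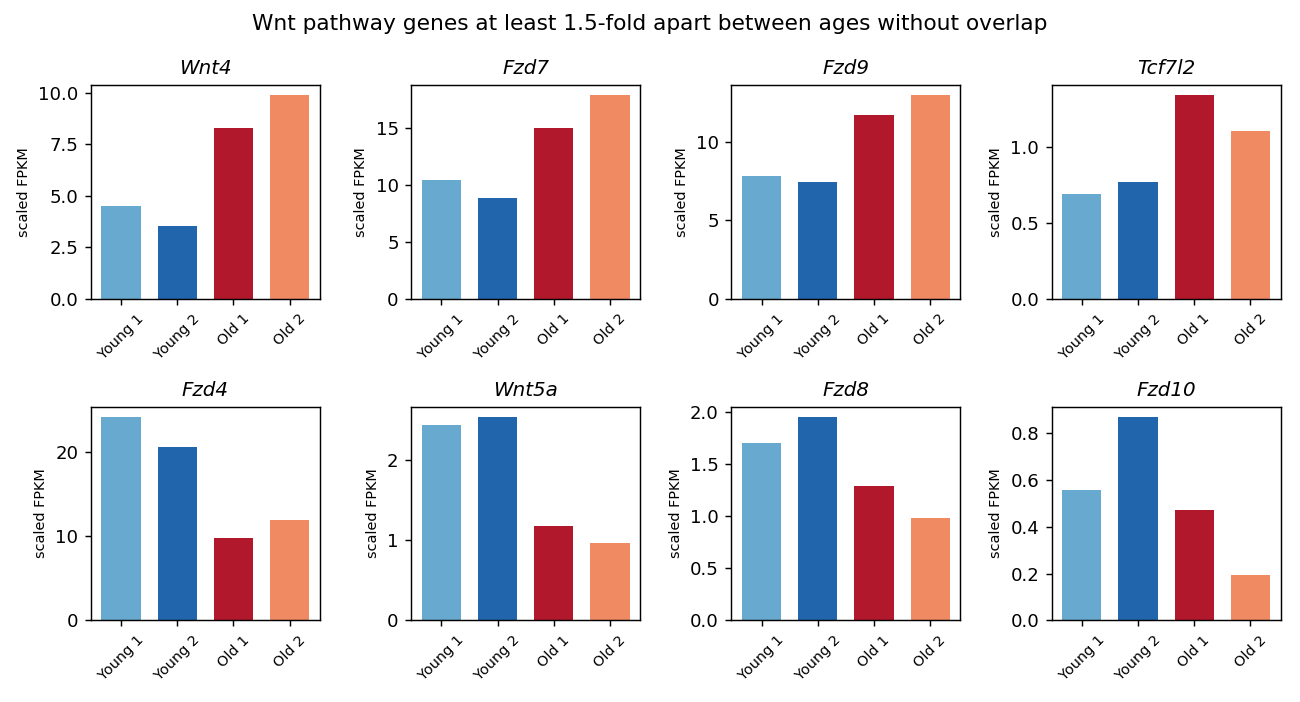
Scaled FPKM of the 8 Wnt pathway genes that did not overlap between ages and differed by at least 1.5-fold, with 1 bar for each sample on linear axes that start at 0. Wnt4, Fzd9, Fzd7 and Tcf7l2 were higher in both old samples, and Fzd4, Wnt5a, Fzd8 and Fzd10 were lower, Fzd10 being below the filter and not tested.

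Among the ligands, Wnt4 had the highest mean over the 4 samples, though in both young samples Wnt9a was above it, and it had the largest difference of all 48 genes on this scale. Wnt4 lies on chromosome 4, from 137277635 to 137299501 (mm10), and encodes a secreted ligand known for its role in kidney and female reproductive tract development. Its level was 8.28 scaled FPKM in Old 1 and 9.90 in Old 2, against 4.50 in Young 1 and 3.55 in Young 2. The ages did not overlap, with the old values on top. The difference was 1.01 (SE 0.15, adjusted p = 0.0770 in limma), a 2.26-fold higher mean in Old. The deposited ratios in samples of like scale were 2.31 and 2.15. The adjusted p of limma was 0.0205 with cyclic loess and 0.00459 when all 4 samples had to reach 1 FPKM. It was 0.0963 with quantile normalization and 0.123 without a trend, so the call depended on the processing. With 1 sample left out, the difference ran from 0.85 (without Young 2) to 1.17 (without Young 1).

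The promoter of Wnt4 is shown because this ligand had the largest difference. The window runs from 250 bases before to 50 bases after the start of transcription, on the + strand at chr4:137277385-137277684, from RefSeq on GRCm38.p6 (the assembly of mm10). Each window was searched on both strands for the TCF motif, written as CTTTGAA, the variant CTTTGAT, the variant CTTTGTA or the variant CTTTGTT, and for the forkhead motif, written as GTAAACA or the variant ATAAACA. The last TCF variant and a forkhead word on the other strand can share the letters TGTT, and no such overlap occurs in the windows shown. Capitals mark a match, and the Wnt4 window has none of these words.
Wnt4: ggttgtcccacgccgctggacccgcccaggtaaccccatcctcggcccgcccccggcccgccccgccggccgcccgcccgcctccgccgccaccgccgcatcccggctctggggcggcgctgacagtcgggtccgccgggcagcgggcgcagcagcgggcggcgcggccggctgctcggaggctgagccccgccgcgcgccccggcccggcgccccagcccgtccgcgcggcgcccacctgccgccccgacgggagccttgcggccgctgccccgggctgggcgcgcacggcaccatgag

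Wnt5a, a ligand best known for signalling without beta-catenin through Ror receptors, had the lowest old values relative to young among the tested ligands whose ages did not overlap. Wnt5a (chromosome 14, 28505473 to 28525515) was at 1.17 and 0.963 scaled FPKM in Old 1 and Old 2, against 2.44 and 2.54 in Young 1 and Young 2. Both old samples were below both young samples. The difference was -0.76 (SE 0.12, adjusted p = 0.0797 in limma), with a mean 2.33-fold higher in Young. In samples of like scale the deposited ratios were 0.458 and 0.386. The adjusted p of limma was 0.0407 with cyclic loess, but 0.202 with quantile normalization, 0.113 without a trend and 0.576 with the replicate number as a block. The call thus depended on the processing. Wnt5a was deposited at 0.628 FPKM in Old 2, and low genes were those whose samples of an age differed most.

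Wnt9a and Wnt11 lay in the same direction as Wnt5a by less. Wnt9a, a ligand known for joint formation, was at 4.74 and 5.27 scaled FPKM in Old and at 7.18 and 6.42 in Young (difference -0.38, adjusted p = 0.137 in limma). Wnt11, known for cell movement in the early embryo, was at 2.03 and 1.57 in Old and at 2.44 and 2.83 in Young (difference -0.38, adjusted p = 0.213 in limma). Wnt2b, the fifth ligand tested, ran from 0.102 scaled FPKM in Old 2 to 2.01 in Young 2, and its ages overlapped.

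The other 5 ligands were near the bottom of the scale. Wnt2 and Wnt10b were listed at 0 in Old 2 and in Young 1. Wnt5b was at 1.88 scaled FPKM in Old 1, the highest single value of any gene below the filter, but at 0.0267 in Old 2, and the young samples held 0 and 0.522. Wnt16 and Rspo3, the R-spondin that strengthens Wnt signals through Lgr receptors, had means of 0.344 and 0.208. For these genes the sample of larger scale in each age held the higher value, so the values do not separate age from scale.

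The Frizzled receptors held differences in both directions. Fzd7 and Fzd9 were higher in both old samples, and Fzd4 and Fzd8 were lower. Of the 10 Frizzled genes 6 were tested, and their summed level over all 10 was 43.8 and 46.6 scaled FPKM in Old 1 and Old 2 and 48.5 and 47.3 in Young 1 and Young 2.

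Fzd4 had the highest mean of all receptors on the list. It is a Wnt receptor that also binds norrin and is known for growth of blood vessels in the retina. Fzd4 lies on chromosome 7, from 89404366 to 89413091. Its level was 9.83 and 11.9 scaled FPKM in Old 1 and Old 2 and 24.2 and 20.6 in Young 1 and Young 2, so that the higher old value was below the lower young one. The difference was -0.98 (SE 0.15, adjusted p = 0.0797 in limma), with a mean 2.06-fold higher in Young. The deposited ratios were 0.473 and 0.482 in samples of like scale. The adjusted p of limma was 0.00864 with cyclic loess, 0.0439 with quantile normalization and 0.00799 when all 4 samples had to reach 1 FPKM. Without a trend it was 0.122. With 1 sample left out, the difference ran from -1.11 (without Old 2) to -0.84 (without Old 1).

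Fzd7, a receptor known from satellite cells as a receptor of Wnt7a, lies on chromosome 1, from 59482085 to 59487940. It was at 15.0 and 17.9 scaled FPKM in Old 1 and Old 2 and at 10.4 and 8.87 in Young 1 and Young 2. The ages did not overlap. The difference was 0.71 (SE 0.14, adjusted p = 0.103 in limma), a 1.70-fold higher mean in Old. The 2 deposited ratios in samples of like scale were 1.68 and 1.67. The adjusted p of limma was 0.0113 with cyclic loess and 0.0217 when all 4 samples had to reach 1 FPKM. It was 0.0791 with quantile normalization and 0.146 without a trend, so the call depended on the processing.

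Fzd9, a receptor encoded on chromosome 5 from 135248938 to 135251047 and studied at the neuromuscular junction, was at 11.8 and 13.0 scaled FPKM in the old samples and at 7.87 and 7.49 in the young ones. Both old values were above both young values. The difference was 0.62 (SE 0.09, adjusted p = 0.0774 in limma), a 1.61-fold higher mean in Old. The deposited ratios were 1.56 and 1.62. In limma the adjusted p was 0.00946 with cyclic loess and 0.0205 when all 4 samples had to reach 1 FPKM. It was 0.0823 with quantile normalization and 0.124 without a trend, so the call depended on the processing.

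The order of these receptors by level was not the same at the 2 ages. In both young samples Fzd4 was above Fzd7 and Fzd9, at 24.2 against 10.4 and 7.87 scaled FPKM in Young 1, whereas in both old samples Fzd4 was below them, at 9.83 against 15.0 and 11.8 in Old 1 and at 11.9 against 17.9 and 13.0 in Old 2. This exchange of places within a sample does not depend on the scale factor of the sample, since all 3 values are divided by it. The promoters of the 3 receptors are shown because they carry this exchange, Fzd4 on the + strand at chr7:89404116-89404415, Fzd7 on the + strand at chr1:59481897-59482196 and Fzd9 on the - strand at chr5:135250998-135251297. The capitals in Fzd7 mark a TCF word, CTTTGTT on the other strand, which begins 130 bases before the start. The windows of Fzd4 and Fzd9 hold none of the words searched.
Fzd4: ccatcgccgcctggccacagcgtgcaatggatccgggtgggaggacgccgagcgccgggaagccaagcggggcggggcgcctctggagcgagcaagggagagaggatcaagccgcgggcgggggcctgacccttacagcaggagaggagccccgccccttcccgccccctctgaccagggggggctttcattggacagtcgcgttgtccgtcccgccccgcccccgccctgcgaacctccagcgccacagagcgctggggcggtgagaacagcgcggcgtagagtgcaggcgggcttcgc
Fzd7: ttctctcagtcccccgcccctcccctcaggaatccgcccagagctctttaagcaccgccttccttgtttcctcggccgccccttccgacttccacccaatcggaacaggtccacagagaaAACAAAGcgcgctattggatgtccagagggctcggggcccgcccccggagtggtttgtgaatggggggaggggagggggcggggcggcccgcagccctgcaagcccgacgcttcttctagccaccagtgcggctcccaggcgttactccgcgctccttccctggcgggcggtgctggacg
Fzd9: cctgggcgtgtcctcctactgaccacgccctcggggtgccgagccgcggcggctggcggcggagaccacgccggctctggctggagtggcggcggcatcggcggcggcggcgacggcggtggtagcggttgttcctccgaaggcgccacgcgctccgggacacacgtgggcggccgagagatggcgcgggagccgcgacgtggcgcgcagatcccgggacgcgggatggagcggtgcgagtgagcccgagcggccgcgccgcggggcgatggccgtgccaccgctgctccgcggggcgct

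**Figure D4:**
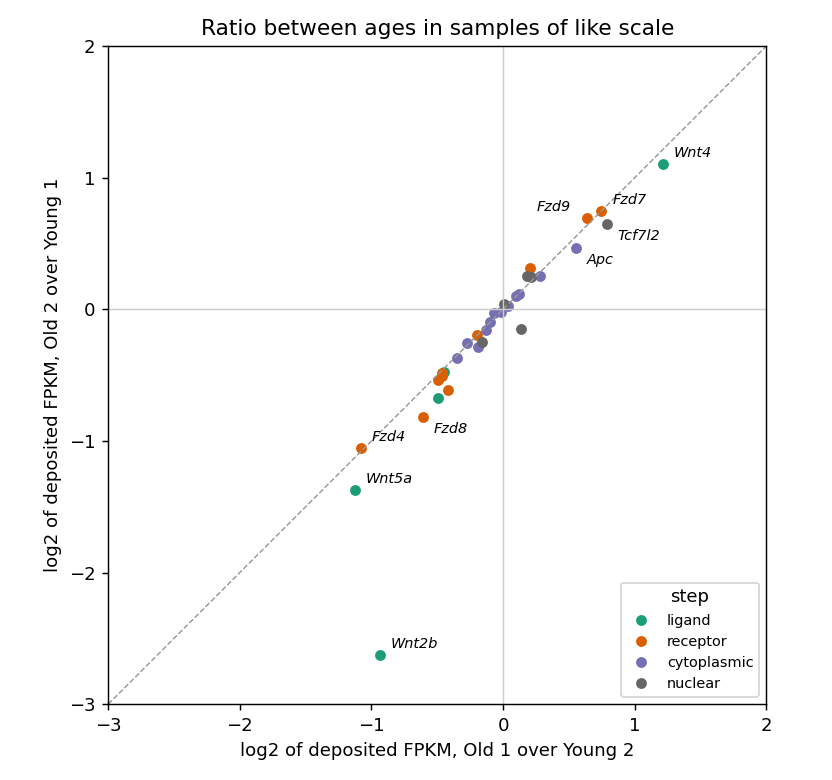
The log2 ratio of deposited FPKM between ages for the 33 tested Wnt pathway genes, Old 1 over Young 2 on the horizontal axis and Old 2 over Young 1 on the vertical axis, with the line of equal ratios dashed. Most genes lie near the line, with Wnt4, Fzd7 and Fzd9 at the upper right, Fzd4 and Wnt5a at the lower left and Wnt2b far below the line.

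Fzd8 and Fzd10 were low in all samples. Fzd8 was at 1.29 and 0.986 scaled FPKM in Old 1 and Old 2 and at 1.70 and 1.96 in Young 1 and Young 2, a difference of -0.41 (SE 0.15, adjusted p = 0.221 in limma). Fzd10, below the filter and not tested, was at 0.471 and 0.194 in Old and at 0.558 and 0.870 in Young. Neither receptor overlapped between the ages. Fzd2 and Fzd6 were tested and overlapped. Fzd1, Fzd3 and Fzd5 were below the filter, and of these Fzd5 did not overlap, at 0.498 and 0.370 in Old and 0.534 and 0.676 in Young.

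Of the co-receptors and other receptors tested, Lrp5 and Lgr4 had lower values in both old samples and Lrp6 overlapped, and none passed the test. Lrp5, which with Frizzled forms the receptor of the canonical branch, was at 5.28 and 6.19 scaled FPKM in Old and at 8.60 and 7.22 in Young (difference -0.40, adjusted p = 0.187 in limma). Its close relative Lrp6 was at 7.84 and 9.50 in Old and at 10.6 and 8.93 in Young, and overlapped. Lgr4, the R-spondin receptor, was at 8.96 and 10.7 in Old and at 14.6 and 12.3 in Young (difference -0.42, adjusted p = 0.204 in limma). Lrp5 and Lgr4 did not overlap between ages, and with cyclic loess both were called (adjusted p = 0.0492 and 0.0258 in limma). Znrf3, a ubiquitin ligase that removes Frizzled from the cell surface, was at 1.11 and 1.09 in Old and at 0.856 and 0.956 in Young, without overlap (difference 0.14, adjusted p = 0.726 in limma). Ror1, Ror2, Lgr5 and Rnf43 were below the filter, with means of 0.0565 to 0.277 scaled FPKM.

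The 12 cytoplasmic regulators were the most abundant step, with small differences between ages, all lying from -0.31 (Dvl3) to 0.43 (Apc). Rac1, a small GTPase of the branches without beta-catenin, was the highest of all 48 genes. Its level was 89.8 and 107 scaled FPKM in Old 1 and Old 2 and 106 and 90.1 in Young 1 and Young 2, with a difference of 0.0015 (SE 0.17, adjusted p = 0.998 in limma). Its ages overlapped fully, and the sign of this difference changed with the scaling (-0.020 on the deposited values).

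Among the Dishevelled proteins, which carry the signal from Frizzled, Dvl1 was the most abundant. Dvl1 was at 45.1 and 52.5 scaled FPKM in Old and at 61.4 and 54.1 in Young (difference -0.24, adjusted p = 0.427 in limma, and 0.0180 with cyclic loess). Dvl3 was at 8.60 and 10.2 in Old and at 12.9 and 10.9 in Young (difference -0.31, adjusted p = 0.289 in limma, and 0.0443 with cyclic loess). Dvl2, at a mean of 1.92, overlapped. Neither Dvl1 nor Dvl3 overlapped between ages.

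In the destruction complex, the scaffold genes Apc and Axin1 lay higher in both old samples. Apc was at 4.54 and 5.45 scaled FPKM in Old and at 3.86 and 3.07 in Young (difference 0.43, adjusted p = 0.194 in limma). Axin1 was at 4.20 and 4.81 in Old and at 3.95 and 3.44 in Young (difference 0.23, adjusted p = 0.296 in limma). Axin2, a scaffold that beta-catenin itself switches on and that is widely read as a marker of canonical signalling, lay lower, at 1.66 and 1.59 in Old and at 1.91 and 1.88 in Young (difference -0.14, SE 0.10, adjusted p = 0.499 in limma). Its ages did not overlap, and the difference did not pass the test.

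The kinases of the complex differed little. Gsk3a was at 44.3 and 51.3 scaled FPKM in Old and at 46.3 and 40.4 in Young, with overlap, a difference of 0.14 (adjusted p = 0.689 in limma) and an adjusted p of 0.0407 in limma with cyclic loess. Gsk3b, its relative, had a difference of 0.05. The casein kinase genes Csnk1a1, Csnk1d and Csnk1e had differences of -0.12, -0.07 and 0.11 and overlapped between ages. Ctnnb1, the gene of beta-catenin, was not analysed here.

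Of the nuclear factors, Tle1, a co-repressor that TCF/LEF factors hold when beta-catenin is absent, was the highest. Tle1 was at 7.85 and 8.28 scaled FPKM in Old 1 and Old 2 and at 9.63 and 8.71 in Young 1 and Young 2, with no overlap and a difference of -0.17 (SE 0.09, adjusted p = 0.366 in limma). Tcf7l2 (chromosome 19, 55741810 to 55933655), the TCF factor known from the gut and from diabetes genetics, was at 1.34 and 1.10 in Old and at 0.689 and 0.770 in Young. Here too the lower old value exceeded the higher young value. Its difference was 0.36 (SE 0.18, adjusted p = 0.337 in limma), with a 1.68-fold higher mean in Old and deposited ratios of 1.73 and 1.57. It was near 1 FPKM, where the 2 samples of an age differed most in scale.

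Tcf7l2 is the TCF/LEF gene with the largest difference, and 2 of its start sites are shown for that reason. The first is at chr19:55741560-55741859 and the second, inside the gene, at chr19:55895071-55895370, both on the + strand. The capitals mark a forkhead word on the other strand, ATAAACA, which begins 69 bases before the first start, and a TCF word, CTTTGTT, which begins 14 bases before the second.
Tcf7l2 first start: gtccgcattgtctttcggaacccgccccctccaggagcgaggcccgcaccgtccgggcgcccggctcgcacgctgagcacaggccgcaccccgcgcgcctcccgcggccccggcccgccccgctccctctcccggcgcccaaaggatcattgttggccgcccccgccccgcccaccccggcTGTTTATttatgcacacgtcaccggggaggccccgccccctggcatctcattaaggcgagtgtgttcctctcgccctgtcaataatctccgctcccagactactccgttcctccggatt
Tcf7l2 second start: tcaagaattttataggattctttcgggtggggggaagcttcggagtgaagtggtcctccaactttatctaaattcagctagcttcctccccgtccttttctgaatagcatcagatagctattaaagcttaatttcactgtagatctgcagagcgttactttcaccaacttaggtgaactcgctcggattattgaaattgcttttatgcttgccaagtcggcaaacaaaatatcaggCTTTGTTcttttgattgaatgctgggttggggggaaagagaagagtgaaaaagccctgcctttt

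The remaining nuclear factors were close between ages or low. Mouse Tcf3 encodes the E2A helix-loop-helix factor, and the factor that Wnt studies often call Tcf3 is encoded by Tcf7l1. Tcf3 was at 4.49 and 4.90 scaled FPKM in Old and at 4.05 and 3.86 in Young, without overlap (difference 0.20, adjusted p = 0.234 in limma). Tcf7l1 overlapped, with a difference of 0.01. Bcl9 and Pygo2, cofactors that join beta-catenin to chromatin, had differences of 0.11 and 0.04. Tcf7 and Lef1 were below the filter, with means of 0.155 and 0.0422 scaled FPKM, and Lef1 was listed at 0 in Old 2 and Young 1.

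Promoter windows were found for 33 of the 48 genes, 47 windows in all, and Wnt5a was among the 15 without one. A TCF word was present in 6 of the 47 (12.8%) and a forkhead word in 3 (6.38%), against 16.9% and 7.97% of all 32851 mouse promoter windows of the same length. The windows with a TCF word belonged to Wnt5b, Wnt11, Fzd7, Gsk3a, Tcf7l2 and Lef1, of which Wnt11 was lower in both old samples, Fzd7 and Tcf7l2 were higher, Gsk3a overlapped, and Wnt5b and Lef1 were below the filter.

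Other genes of the pathway were counted from lists of 113 further names, of which 93 had a value and 63 were tested. At an adjusted p under 0.05, limma called 0 of them higher and 2 lower (3.17%), beside 0.594% and 0.731% of all tested genes. An unadjusted p under 0.05 was found for 12 with higher (19.0%) and 7 with lower values (11.1%), beside 11.5% and 12.9% of all tested genes. With cyclic loess limma called 8 of the 63 higher and 11 lower, beside 11.1% and 13.6% of all tested genes. The median difference of the 63 was 0.04. Frat2, which binds Gsk3 and frees beta-catenin from it, fell from 12.9 and 11.4 scaled FPKM in Young 1 and Young 2 to 4.53 and 4.54 in Old 1 and Old 2 (difference -1.25, SE 0.09, adjusted p = 0.0421 in limma). Sox17, a nuclear factor that binds beta-catenin and marks endothelial cells of arteries, fell from 6.01 and 5.67 to 2.88 and 2.89 (difference -0.82, SE 0.07, adjusted p = 0.0455 in limma). Both genes were without overlap between the ages.

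By list, 1 of 17 other ligand and ligand secretion genes was tested, Wls, the carrier that takes Wnt proteins to the cell surface. Wls was at 6.85 and 7.71 scaled FPKM in Old and 5.84 and 5.50 in Young. It was not called (adjusted p = 0.166 in limma, and 0.0406 with cyclic loess). Wnt3a, Wnt7a and Wnt8a were listed at 0 in all samples. Of the receptor partners 5 of 9 were tested and 0 called. The one past 1.5-fold was Tspan12, a tetraspanin that works with Fzd4 in norrin signalling, at 8.19 and 8.62 scaled FPKM in Old and 17.1 and 15.0 in Young (difference -0.86, SE 0.11, adjusted p = 0.0669 in limma). The mean of Tspan12 was thus 1.91-fold higher in Young, beside 2.06-fold for Fzd4, and neither gene passed the test. With cyclic loess both were called lower (adjusted p = 0.00723 and 0.00864 in limma), as was the receptor partner Kremen1 (0.0190).

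Of the planar polarity and other beta-catenin-independent genes 14 of 22 were tested and 0 called. With cyclic loess 3 of the 14 were called higher and 0 lower, beside 11.1% and 13.6% of all tested genes. The kinase gene Rock2 was higher by at least 1.5-fold, at 18.6 and 22.0 scaled FPKM in Old and 14.7 and 10.9 in Young (adjusted p = 0.172 in limma, and 0.0316 with cyclic loess). Of the other cytoplasmic regulators 18 of 28 were tested, with Frat2 called. Frat1, the relative of Frat2, was at 1.53 and 1.20 in Old and 2.39 and 2.67 in Young (adjusted p = 0.114 in limma, and 0.0350 with cyclic loess). Ccdc88c, a protein that binds Dishevelled, was at 7.73 and 9.38 in Old and 6.19 and 4.72 in Young (adjusted p = 0.168 in limma, and 0.0622 with cyclic loess). Both Frat genes thus had lower values in both old samples. Of the other nuclear cofactors 15 of 21 were tested, with Sox17 called. Tle6 was at 2.36 and 2.10 in Old and 1.07 and 1.40 in Young (adjusted p = 0.141 in limma, and 0.0465 with cyclic loess).

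Genes known as targets of Wnt signalling in other tissues gave no shared direction. Of 24 such genes 12 were tested and 0 called, 6 with a positive and 6 with a negative difference, and the median of the 12 was 0.02. With cyclic loess 0 were called higher and 1 lower, beside 11.1% and 13.6% of all tested genes. At least 1.5-fold without overlap were Bmp4 (2.49 and 2.17 scaled FPKM in Old, 1.41 and 1.70 in Young) and Fst, the activin-binding follistatin (1.13 and 0.721 in Old, 0.370 and 0.663 in Young), both higher in Old, and Ppard, a nuclear receptor of fatty acid metabolism (7.63 and 8.92 in Old, 13.6 and 11.5 in Young), lower in Old. Their adjusted p-values in limma were 0.184, 0.543 and 0.131. Axin2, Lef1, Tcf7, Lgr5, Rnf43 and Znrf3 are on this list as well as among the 48 genes.

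Markers of the cells that lie between muscle fibers were read because Frizzled and Wnt genes are also expressed there. In whole muscle, fewer cells of a type and less RNA per cell cannot be told apart. Of the 8 endothelial markers 6 had a value and 0 were called in limma. With cyclic loess 3 were called lower, where 13.6% of all tested genes were. The summed level of these markers was 72.9 and 86.3 scaled FPKM in Old and 105.9 and 89.9 in Young. The members of this list were not alike: Flt1, a receptor of VEGF, was at 7.86 and 9.36 in Old and 17.2 and 14.6 in Young (difference -0.81, adjusted p = 0.0885 in limma), while Kdr and Tek had differences of 0.04 and 0.01 and overlapped. These values lie beside the lower Fzd4, Tspan12 and Sox17 in the old samples, and their part in those differences was not tested.

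Markers of fibroblasts and fibro-adipogenic cells summed to 309.8 and 350.5 scaled FPKM in Old and 446 and 392 in Young. Of the 10, 0 were called higher and 1 lower (Col1a1), beside 0.594% and 0.731% of all tested genes. The members of this list went both ways, with 4 above and 5 below in both old samples, beside 25.8% and 25.7% of all tested genes. With cyclic loess 3 were called higher and 4 lower, beside 11.1% and 13.6% of all tested genes. Dcn was among those above, at 79.3 and 94.9 in Old and 76.4 and 63.6 in Young. Satellite cell markers, which bear on Fzd7, summed to 20.5 and 20.9 in Old and 21.8 and 21.7 in Young, and 0 of the 4 tested were called (1 lower with cyclic loess). Of these 4, 3 had a positive and 1 a negative difference. Macrophage markers summed to 12.6 and 8.68 in Old and 14.8 and 19.1 in Young, pericyte and smooth muscle markers to 176 and 172 against 190.2 and 219.7, and Schwann cell markers to 31.3 and 33.7 against 49.9 and 45.1. In each of these lists both old sums lay below both young sums, and 0 genes were called. The sums do not show the direction of every member. Differences were negative for 6 of 6 tested macrophage markers, 4 of 7 pericyte and smooth muscle markers and 3 of 4 Schwann cell markers. With cyclic loess 1 of 6 tested macrophage markers, 3 of 7 pericyte and smooth muscle markers and 2 of 4 Schwann cell markers were called lower and 0 higher. Sums of adipocyte markers overlapped, from 257 to 296 in Old and 275 to 329 in Young, with 1 called higher with cyclic loess. The part of these cell types in the Wnt pathway values was not tested.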

How the data were processed

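Gene expression in TA muscle was read from 2 Old and 2 Young mRNA-seq samples, grouped by the age and number in their titles. The authors trimmed reads, removed PCR duplicates, aligned to mm10 with TopHat2 (2.0.10 per the labels) with RefSeq genes as a guide, ran Cufflinks on each sample and deposited its FPKM values for each locus. The submitters' processing notes also name Cuffdiff 2.1.1, which needs the alignments and was not run here. Depth is unknown, because FPKM holds no counts and whole reads could not be recovered. The paper names a stranded library kit and the labels a kit without that word, and whether the counting used strand is not given in the sources used here. With chromosomes in text order, the last value of a sample was on chromosome 7 or early on chromosome 8, 1 incomplete line per sample was dropped, and genes without a value in all 4 samples were not analysed here.

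Values of the 20605 common loci were summed by symbol. Scaling used the median of ratios to the geometric mean over 9293 genes, and log2(scaled FPKM + 1) was tested with limma 3.58.1 in R 4.3.3 (trend, two-sided, Benjamini-Hochberg over 10266 genes that reached 1 FPKM in 2 or more samples, threshold 0.05). All 4 samples entered 1 fit. The code was also run on simulated data with independent noise and 1 factor per sample. That simulation lacked the level-dependent scale of the real samples, so it cannot show how the fit behaves on them. Values of every sample were given for genes that were called, or were without overlap at 1.5-fold or more, or highest in a step. The members and lists were chosen with earlier results of these data known, so no list was tested as a whole. Same-numbered samples deviated in opposite directions, and the numbers were not taken to pair samples. Alternatives were another pseudocount, filters, normalizations, the replicate number as a block, no trend, the highest locus per symbol and leaving out each sample. The crossed pairs as a block were added after the values were seen. Software was Python 3.11.15 with matplotlib 3.10.9, numpy 2.4.6 and pandas 2.3.3.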

Additional observations from a re-analysis of the deposited data

How the results depend on the processing

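As reported, limma called 61 genes higher and 75 lower in Old, and 0 and 0 of the Wnt pathway genes. The numbers of genes called higher and lower were 0 and 0 of 20340 with no filter on low values, and 719 and 707 of 7228 when all 4 samples had to reach 1 FPKM. Of the same 10266 genes, they were 18 and 13 on the deposited values, 119 and 188 with quantile normalization, 1135 and 1395 with cyclic loess, and 0 and 2 without a trend. A pseudocount of 0.1 gave 123 lower. When all 4 samples had to reach 1 FPKM, 24 Wnt pathway genes were tested, and 3 were called higher and 2 lower. Wnt5a, Fzd8 and Tcf7l2 were not among the 24. Of the 33 tested otherwise, 0 and 1 were called with quantile normalization, and 4 and 7 with cyclic loess. Leaving out 1 sample gave 11 to 288 genes higher and 7 to 383 lower, lowest without Old 2 and highest without Young 2, and 0 to 1 Wnt pathway genes in each direction (Wnt4 without Old 1, Wnt4 and Fzd4 without Young 2). The cause of these changes was not tested. The replicate number as a block (67 genes higher, 92 lower, 0 Wnt pathway genes) changed no call of a Wnt pathway gene, and the deviations of same-numbered samples had r = -0.905 over 10266 genes. With the crossed pairs as a block, chosen after seeing the data, 3313 genes were called higher and 3422 lower, 9 and 17 of them Wnt pathway genes. The median of the receptors, -0.16, was -0.43 with a pseudocount of 0.1 and ranged from -0.25 (without Young 1) to -0.031 (without Young 2). Leaving out 1 sample moved the medians of the ligands from -0.18 to 0.12, of the cytoplasmic regulators from -0.097 to 0.092 and of the nuclear factors from 0.00082 to 0.10. Rac1 changed sign on the deposited values (-0.020) and with quantile normalization (-0.027), and ranged from -0.12 (without Old 2, with -0.12 also without Young 2) to 0.13 when 1 sample was left out. Over the 9 genes described in full and tested, 123 alternatives left 98 with the same direction and side of the threshold, moved 21 past it and reversed 4, all of Rac1. These alternatives include the crossed pairs as a block, chosen after the data were seen. Fzd8, Tcf7l2 and Tle1 moved past the threshold with that block only. Low levels limit 15 genes, which were not tested, and 9 tested genes under 1 FPKM in Old 2 or Young 1.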
